A study of Homo sapiens with 24 samples.

Results

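Transcript levels of 10 genes around the FOXO transcription factors were followed in LNCaP cells, a hormone-sensitive human prostate cancer line: the factors FOXO1, FOXO3 and FOXO4, and 7 genes known as their targets, TXNIP, PIK3IP1, CCNG2, BCL6, CITED2, SESN3 and CAT. The genes were chosen by name, as members of 1 pathway, from 23207 gene symbols. Earlier results of these data were known at that time, so counts and medians set beside all genes are descriptions of the set, not tests. All 10 were found in the files and passed the filter on low counts in every fit. FOXO factors bind DNA and turn on genes of cell cycle arrest, antioxidant defence and lowered growth factor signalling. The kinase AKT, acting downstream of PI3K, phosphorylates them and keeps them out of the nucleus, so their activity is mostly set by the protein's place and modification and not by its transcript. SIRT1 is a deacetylase with FOXO proteins among its substrates, and androgen signalling is the main growth signal of LNCaP cells.

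RNA was sequenced from 24 libraries in 8 groups of 3. All cells had been transduced at a multiplicity of infection of 10 with a lentivirus for a short hairpin RNA, selected in 1 µg/ml puromycin and then held in 0.5 µg/ml, also the controls, whose hairpin was non-targeting (NTC). The FBS set compares a SIRT1 knockdown named shSIRT1 with NTC cells in medium with fetal bovine serum, which holds androgens. The set in charcoal-stripped serum, which is depleted of androgens, compares a SIRT1 knockdown named 10 with NTC cells after 48 h in FBS medium and 24 h in stripped serum. Each was then kept for 24 h with 1 nM dihydrotestosterone (DHT, an androgen) plus 10 µM enzalutamide, an antiandrogen drug, with 1 nM DHT, or with vehicle. The labels describe the knockdown lines as stable clones and leave unstated if the cells of the 2 sets carry 1 common hairpin, so an effect of the knockdown and a difference between clones cannot be told apart. Nor do they say that the 3 libraries of a group came from separate cultures. The p-values therefore measure the spread between these libraries, which may be technical.

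Libraries held 11.9 to 14.2 M counts in the FBS set and 25.2 to 35.1 M in stripped serum. All 10 listed LNCaP identity genes were detected in every group, with a summed level of 3547 to 4258 counts per M counts (CPM). In knockdown 10 with vehicle FOLH1 (2262 CPM) and KRT8 (707 CPM) made up most of it. KLK3 averaged 5.91 CPM there and 234 CPM in NTC cells with DHT. Markers of basal cells or other prostate lines summed to 8.19 to 53.8 CPM, fibroblast markers to 14.6 to 39.5 CPM, and leukocyte and endothelial markers to 2.82 to 12.6 CPM. Single genes made up most of these sums in knockdown 10 with vehicle, where VIM averaged 37.6 CPM, COL1A1 24.1 CPM and VWF 3.75 CPM. In NTC cells with DHT the same genes averaged 34.1, 21.1 and 8.06 CPM. The T cell marker CD3E had no count in 7 of the 8 groups, all but NTC in FBS. In both FBS groups the library numbered 3 stood apart: the chi-square per gene between libraries 1 and 2 was 1.6 in shSIRT1 and 1.55 in NTC cells, and 8.89 to 9.39 in the pairs with library 3. In stripped serum the pairs with library 1 differed most in 5 of the 6 groups. Calls of the 10 genes that change without these libraries are given both ways.

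FOXO3 supplied most of the FOXO transcript in every group. In TPM, a scale that takes account of transcript length, it made up 86.6 to 88.9% of the sum of the 3 factors as group means in stripped serum, and 80.9% ± 2.1 in shSIRT1 and 81.1% ± 0.54 in NTC cells in FBS (SD, n = 3). FOXO4 held 8.01 to 9.66% and FOXO1 2.90 to 3.72% of that sum in stripped serum. Over the 18 libraries in stripped serum, the median TPM ran from TXNIP at 228 through CAT at 162, SESN3 at 109, FOXO3 at 84.0, CCNG2 at 75.2, CITED2 at 61.8, PIK3IP1 at 34.2 and BCL6 at 23.0 to FOXO4 at 8.21 and FOXO1 at 2.83. The ranges over libraries of FOXO4 (6.80 to 9.33 TPM) and FOXO1 (2.39 to 3.74 TPM) lay apart from each other and below those of the 8 other genes. FOXO3 (57.3 to 97.1 TPM), CCNG2 (48.5 to 88.5 TPM) and CITED2 (46.5 to 75.1 TPM) overlapped as neighbours in that order. In FBS the order began with TXNIP, CAT and SESN3 as well, at medians of 144, 128 and 75.8 TPM, and ended with PIK3IP1 (7.73 to 14.8 TPM), FOXO4 at 6.32 and FOXO1 at 3.95 TPM. The FBS and stripped-serum sets carry different kinds of labels and were quantified with different fragment length settings, so their levels stand side by side without a test. A FOXO3-like gene, FOXO3B, is nearly identical to part of FOXO3, and reads that fit both could be split between them by the quantification.

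The promoters of 4 of the genes that fell with DHT below are shown because they hold the FOXO core motif GTAAACA or an E-box, CACGTG or CACGNG, the kind of site bound by the MYC and MLX families. The sequences are from the RefSeq promoter table on GRCh38.p14, not from the build of the deposited files, hg19 per the submitters' processing notes. They run from 150 bases before to 30 bases after the annotated start, 5′ to 3′ on the gene's strand: FOXO4 at chrX:71095701-71095880 on the plus strand, TXNIP at chr1:145996550-145996729 on the minus strand, PIK3IP1 at chr22:31292459-31292638 on the minus strand and CCNG2 at chr4:77157057-77157236 on the plus strand. Capitals mark GTAAACA or its reverse complement in FOXO4, TXNIP and PIK3IP1, in TXNIP also a pair of CACGNG boxes with 5 bases between them, and CACGTG in CCNG2.
FOXO4: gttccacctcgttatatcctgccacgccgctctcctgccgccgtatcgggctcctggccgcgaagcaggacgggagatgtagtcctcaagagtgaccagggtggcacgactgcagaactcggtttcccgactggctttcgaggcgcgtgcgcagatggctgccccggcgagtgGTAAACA
TXNIP: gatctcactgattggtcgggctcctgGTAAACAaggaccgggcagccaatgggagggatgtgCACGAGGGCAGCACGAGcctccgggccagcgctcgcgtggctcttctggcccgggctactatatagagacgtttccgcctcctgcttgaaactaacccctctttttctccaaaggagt
PIK3IP1: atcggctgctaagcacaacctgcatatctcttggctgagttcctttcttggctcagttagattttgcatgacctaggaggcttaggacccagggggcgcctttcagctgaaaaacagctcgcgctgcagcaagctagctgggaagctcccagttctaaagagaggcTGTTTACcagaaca
CCNG2: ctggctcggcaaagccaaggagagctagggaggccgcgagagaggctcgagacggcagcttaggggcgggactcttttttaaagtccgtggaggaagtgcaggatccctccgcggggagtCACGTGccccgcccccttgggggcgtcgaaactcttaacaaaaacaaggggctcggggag

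Counted in windows of 300 bases, from 250 before to 50 after each start and on both strands, GTAAACA was found for 3 of the 10 genes (FOXO4, TXNIP and PIK3IP1) and for 4.19% of 27305 genes in the table. In TXNIP it starts 124 bases before the annotated start, and in PIK3IP1 it lies on the opposite strand. The pair of CACGNG boxes, known from glucose-responsive promoters, was found for TXNIP and for 0.0732% of all genes. CACGTG was found for CITED2 and CCNG2 and for 8.77% of all genes. No GTAAACA match overlaps a match of another motif in the 4 sequences above. These are letter matches in short windows and say nothing of binding.

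DHT lowered most of the genes in NTC cells and fewer of them past the test in knockdown 10. In NTC cells 6 of the 10 fell with DHT and none rose, and 29.9% of the 14558 genes tested were called in this comparison (edgeR quasi-likelihood test, adjusted p under 0.05), 12.5% as lower. The 6 were PIK3IP1, TXNIP, CCNG2, FOXO3, FOXO4 and CAT. In knockdown 10, 4 of the 10 fell and none rose, PIK3IP1, TXNIP, CCNG2 and FOXO3, where 22.2% of all genes were called and 8.92% as lower. The median log2 change of the 10 genes was -0.31 in NTC cells, against -0.0020 over all genes tested, and -0.21 in knockdown 10, against 0.0077 over all genes. The DHT and vehicle libraries did not overlap for 6 of the 10 in NTC cells, against 45.8% of all genes, and for 5 of the 10 in knockdown 10, against 31.7%.

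FOXO3 had 266, 299 and 304 CPM in NTC cells with DHT, against 359, 387 and 390 CPM with vehicle. In knockdown 10 it had 288, 314 and 329 CPM with DHT, against 356, 384 and 384 CPM with vehicle. Every DHT library lay below every vehicle library in both lines, with log2 fold changes of -0.39 ± 0.063 (SE; adjusted p = 1.45e-04) in NTC cells and -0.27 ± 0.063 (adjusted p = 0.00453) in knockdown 10. FOXO4, a factor at low level, averaged 14.1 ± 0.47 CPM with DHT and 17.3 ± 0.65 CPM with vehicle in NTC cells (SD, n = 3), a log2 change of -0.29 ± 0.061 (adjusted p = 0.00135). In knockdown 10 FOXO4 averaged 15.0 ± 0.77 CPM with DHT and 16.8 ± 0.41 CPM with vehicle, and its log2 change of -0.17 missed the threshold (adjusted p = 0.0562). FOXO4 was called as lower there with RLE size factors (adjusted p = 0.0405) and without DHT library 3 of knockdown 10 (log2 -0.23, adjusted p = 0.0228). FOXO1 stayed within its spread, at 9.62 ± 0.43 CPM with DHT and 9.71 ± 0.71 CPM with vehicle in NTC cells, with an interval of the log2 difference from -0.31 to 0.28.

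TXNIP, which binds thioredoxin and limits glucose uptake, had the highest TPM of the 10. In NTC cells it had 254, 278 and 291 CPM with DHT, against 399, 404 and 423 CPM with vehicle. In knockdown 10 it had 294, 333 and 369 CPM with DHT, against 437, 494 and 470 CPM with vehicle. The DHT and vehicle libraries did not overlap in either line. TXNIP was 1.49-fold lower with DHT in NTC cells (log2 -0.57 ± 0.072, adjusted p = 8.57e-06) and 1.41-fold lower in knockdown 10 (log2 -0.49 ± 0.072, adjusted p = 7.98e-05).

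PIK3IP1, a membrane protein that inhibits PI3K, moved most of the 10 in NTC cells. There it had 25.7, 28.4 and 28.1 CPM with DHT, against 44.0, 47.0 and 49.6 CPM with vehicle. In knockdown 10 it had 41.5, 53.2 and 47.8 CPM with DHT, against 63.5, 66.5 and 67.0 CPM with vehicle. Each DHT library was below each vehicle library of its line. The fall was 1.71-fold in NTC cells (log2 -0.78 ± 0.075, adjusted p = 4.27e-07) and 1.38-fold in knockdown 10 (log2 -0.47 ± 0.073, adjusted p = 1.64e-04).

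CCNG2, an unconventional cyclin linked to cell cycle arrest, had 166, 216 and 200 CPM with DHT in NTC cells, against 258, 288 and 267 CPM with vehicle. In knockdown 10 it had 200, 205 and 230 CPM with DHT, against 248, 274 and 267 CPM with vehicle. These groups did not overlap, and the log2 changes were -0.48 ± 0.085 (adjusted p = 3.33e-04) in NTC cells and -0.31 ± 0.085 (adjusted p = 0.0142) in knockdown 10. CAT, the catalase that breaks down hydrogen peroxide, averaged 198 ± 7.2 CPM with DHT and 223 ± 17 CPM with vehicle in NTC cells, a log2 change of -0.17 (adjusted p = 0.0417). That call was lost in 8 of 14 alternative settings, among them without all libraries numbered 1 (log2 -0.14, adjusted p = 0.0626) and without vehicle library 1 (log2 -0.11, adjusted p = 0.22), vehicle library 2 (adjusted p = 0.0518), DHT library 2 (adjusted p = 0.118) or DHT library 3 (adjusted p = 0.0953) of the NTC cells. In knockdown 10 the log2 change of CAT was -0.07 (adjusted p = 0.467).

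SESN3, BCL6 and CITED2 did not pass the test in either line. SESN3, a stress-induced inhibitor of mTORC1 signalling, had log2 values of -0.34 in NTC cells and -0.24 in knockdown 10, with the lowest level in library 1 of all 6 groups. Its libraries numbered 1 held 73.1 to 106 CPM and the others 104 to 148 CPM. BCL6, a transcriptional repressor, had positive log2 values of 0.21 in NTC cells (adjusted p = 0.302) and 0.40 in knockdown 10 (adjusted p = 0.053), with its highest level in library 1 of each of the 6 groups. In knockdown 10 BCL6 was called as higher with DHT by DESeq2 (adjusted p = 0.0364), with no filter (0.0462), without vehicle library 1 (log2 0.50, adjusted p = 0.0385) and without DHT library 2 (log2 0.50, adjusted p = 0.0234). Without the libraries numbered 1, an alternative chosen after seeing the data, BCL6 passed as higher with DHT in NTC cells (log2 0.24, adjusted p = 0.0416) and in knockdown 10 (log2 0.33, adjusted p = 0.0134), and SESN3 as lower in NTC cells (log2 -0.30, adjusted p = 0.0185). CITED2, a transcriptional coregulator of CBP and p300, had log2 values of -0.17 in NTC cells (adjusted p = 0.232) and 0.04 in knockdown 10 (adjusted p = 0.847).

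**Figure D1:**
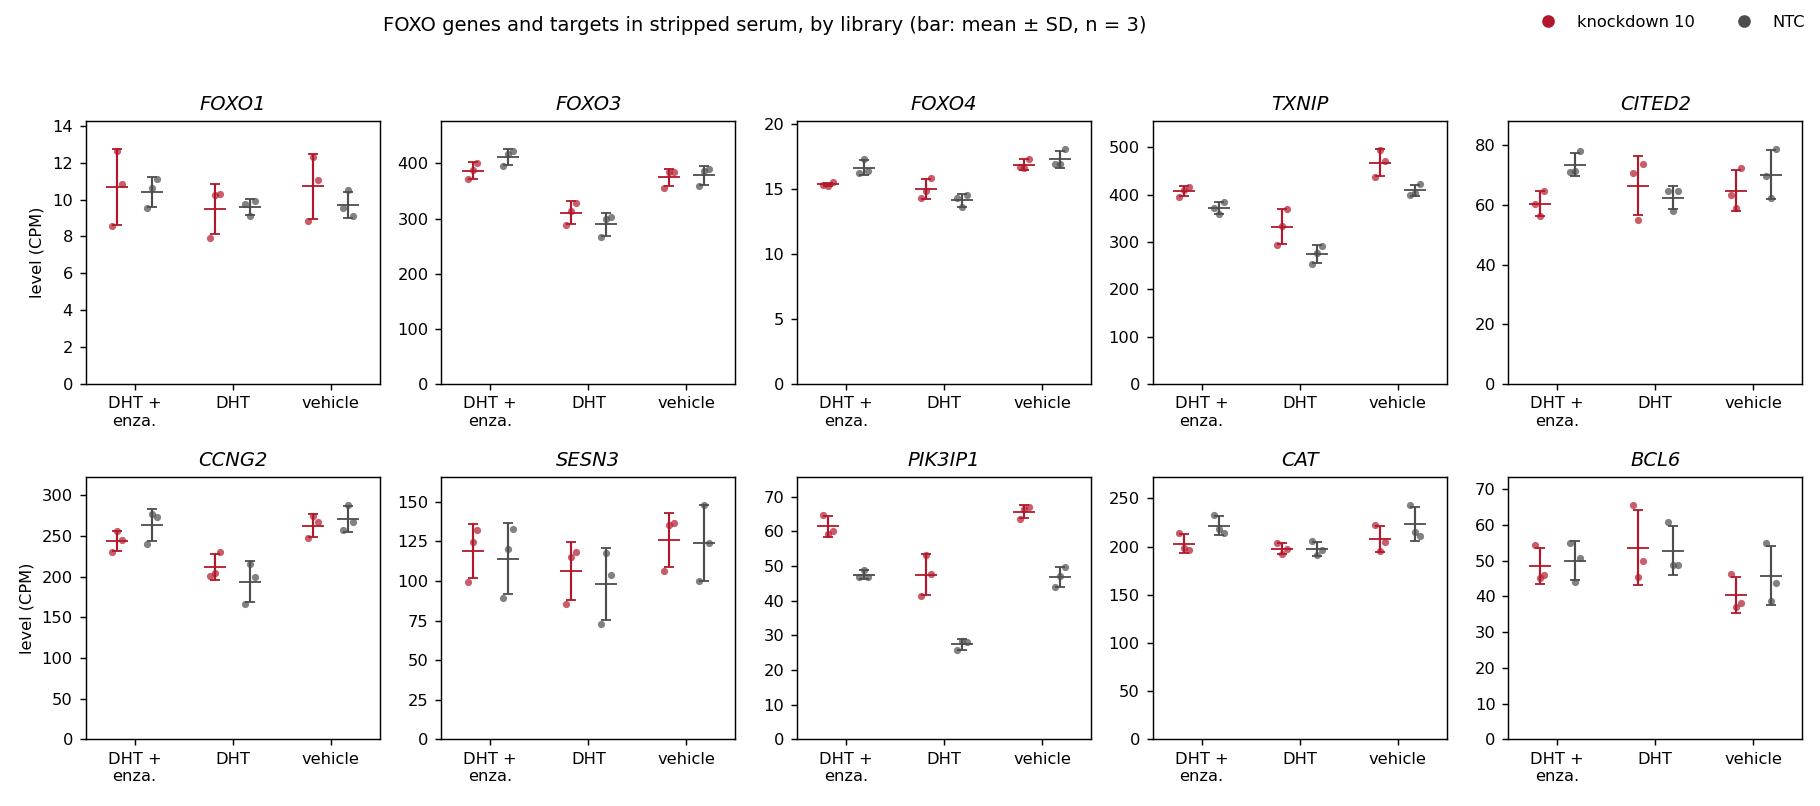
Level in CPM of each of the 10 genes in the 18 libraries in stripped serum, with knockdown 10 in red and NTC in grey; points are libraries 1 to 3 from left to right and bars the mean ± SD (n = 3). FOXO3, TXNIP, CCNG2 and PIK3IP1 are lowest with DHT in both lines, and PIK3IP1 is higher in knockdown 10 than in NTC cells under all 3 treatments.

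Enzalutamide added to DHT was set against DHT alone, so these comparisons share the DHT libraries with those above and their values are given side by side, not as independent results. In NTC cells 5 of the 10 genes rose and none fell with enzalutamide, where 29.2% of all genes were called and 12.6% as higher. The 5 were PIK3IP1, FOXO3, CCNG2, TXNIP and FOXO4. In knockdown 10, PIK3IP1, FOXO3 and TXNIP rose and none fell, 3 of the 10, where 20.3% of all genes were called and 8.08% as higher. The median log2 change of the 10 genes was 0.24 in NTC cells, against 0.0079 over all genes, and 0.17 in knockdown 10, against -0.0031. The libraries with and without enzalutamide did not overlap for 7 of the 10 genes in NTC cells, against 46.0% of all genes, and for 4 of the 10 in knockdown 10, against 31.2%.

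FOXO3 had 395, 416 and 422 CPM with DHT and enzalutamide in NTC cells, above all 3 DHT libraries, and a log2 change of 0.51 ± 0.063 (adjusted p = 7.69e-06). In knockdown 10 it had 372, 389 and 401 CPM, again above all DHT libraries, and a log2 change of 0.32 ± 0.063 (adjusted p = 0.00148). FOXO4 averaged 16.6 ± 0.58 CPM with enzalutamide and 14.1 ± 0.47 CPM with DHT alone in NTC cells, a log2 change of 0.24 (adjusted p = 0.00666) that lost its call when TPM values were tested with limma (adjusted p = 0.0611 and 0.0636 with pseudocounts of 1 and 0.1). In knockdown 10 FOXO4 averaged 15.3 ± 0.13 CPM with both agents and 15.0 ± 0.77 CPM with DHT alone, and its libraries overlapped (log2 0.03, adjusted p = 0.754).

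PIK3IP1 had 46.9, 48.9 and 46.7 CPM with DHT and enzalutamide in NTC cells, 1.74-fold over DHT alone (log2 0.80 ± 0.075, adjusted p = 2.42e-07). In knockdown 10 it had 64.7, 59.3 and 60.2 CPM, 1.29-fold over DHT alone (log2 0.37 ± 0.073, adjusted p = 0.00152). Both groups lay wholly above their DHT libraries. TXNIP had 371, 358 and 384 CPM with enzalutamide in NTC cells (log2 0.43, adjusted p = 1.70e-04). In knockdown 10 TXNIP had 395, 410 and 416 CPM, above its DHT libraries (log2 0.29, adjusted p = 0.00724), and the call was lost when only these groups were fitted (adjusted p = 0.0586). CCNG2 averaged 264 ± 20 CPM with both agents and 194 ± 25 CPM with DHT alone in NTC cells (log2 0.44, adjusted p = 7.39e-04), and 244 ± 13 and 212 ± 16 CPM in knockdown 10 (log2 0.20, adjusted p = 0.105). Without the libraries numbered 1, CCNG2 was called as higher in knockdown 10 (log2 0.22, adjusted p = 0.0393) and CAT in NTC cells (log2 0.16, adjusted p = 0.0383; 0.0551 with all libraries). Leaving out DHT library 3 of knockdown 10 also called CCNG2 there (log2 0.28, adjusted p = 0.0451).

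Libraries with the same number deviated together in these comparisons, and a fit with the number as a replicate block called more of the genes. In NTC cells 8 were higher, with CITED2 (log2 0.24, adjusted p = 0.00229), SESN3 (log2 0.22, adjusted p = 0.0107) and CAT (log2 0.16, adjusted p = 0.00203) beside the 5 above. In knockdown 10, CCNG2 joined those above (log2 0.20, adjusted p = 0.00759). Calls over the 14558 genes tested rose as well, from 4252 to 5870 in NTC cells and from 2949 to 4518 in knockdown 10.

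DHT with enzalutamide set against vehicle called none of the 10 genes in either line. None of the 14558 genes was called in NTC cells (0%) and 1 in knockdown 10 (0.00687%), while 453 and 477 had an unadjusted p under 0.05, and DESeq2 called 0 and 5. The log2 values of the 10 genes ran from -0.14 for TXNIP to 0.13 for BCL6 in NTC cells and from -0.20 for TXNIP to 0.26 for BCL6 in knockdown 10. In each line 2 of the 10 genes had groups that did not overlap, against 9.07% of all genes in NTC cells and 9.40% in knockdown 10: FOXO3 and TXNIP in NTC cells, and FOXO4 and TXNIP in knockdown 10. FOXO3 in NTC cells had all 3 libraries with both agents above the 3 vehicle libraries, with a log2 difference of 0.12 and an interval from -0.01 to 0.25. PIK3IP1 differed by 0.02 in NTC cells (interval -0.13 to 0.17) and by -0.10 in knockdown 10 (interval -0.25 to 0.05). A missed threshold does not show that the levels were the same.

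**Figure D2:**
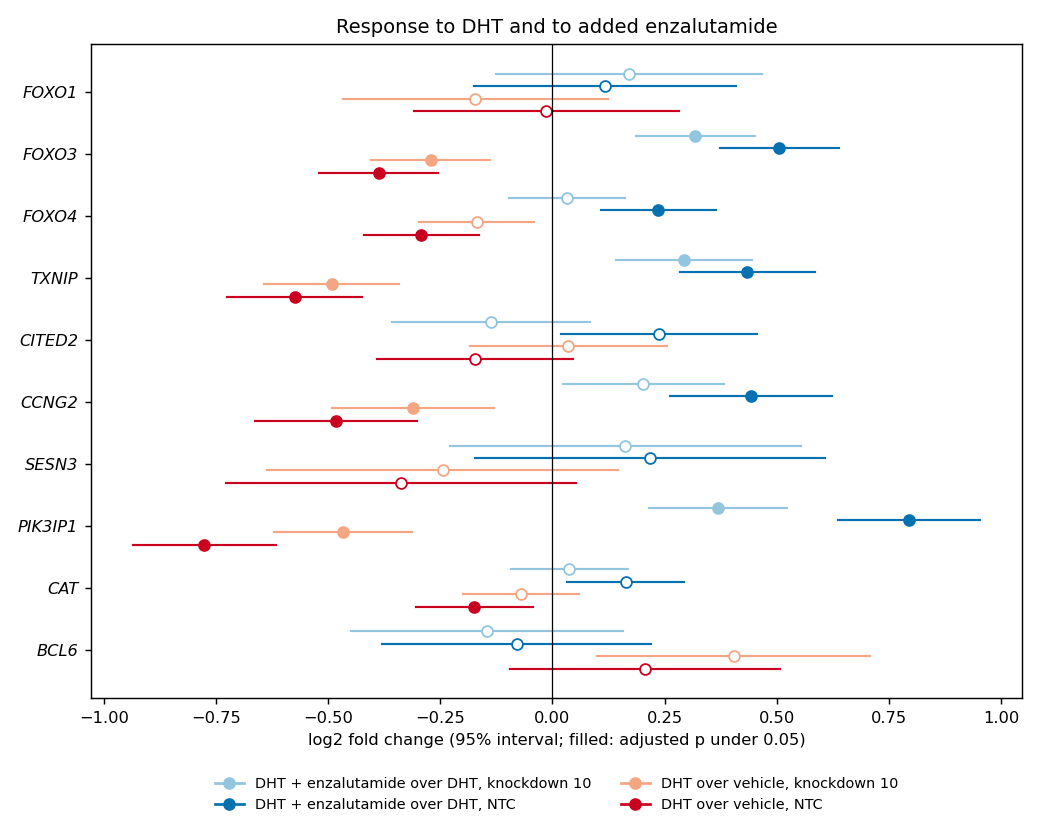
Log2 fold change with its 95% interval for each gene, for DHT with enzalutamide over DHT and for DHT over vehicle, in knockdown 10 and NTC cells; filled points have an adjusted p under 0.05. Filled points of the first comparison are all right of 0 and those of the second all left of 0, with PIK3IP1 farthest from 0 in NTC cells (0.80 and -0.78).

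Fewer of the genes passed in knockdown 10 than in NTC cells, and the difference was itself tested. None of the 10 genes differed between the lines in its response to DHT, where edgeR called 0.199% of all genes and 0.0412% as higher, or to enzalutamide, where it called 0.350% and 0.0824% as lower. DESeq2 called 0 and 1 of the 10, and 159 and 245 of all genes. At an unadjusted p under 0.05, 1 and 3 of the 10 had a difference, against 1598 and 1728 of the 14558 genes tested. PIK3IP1 came nearest, with a response to DHT that was 0.31 higher on the log2 scale in knockdown 10 than in NTC cells (interval 0.09 to 0.53, adjusted p = 0.255) and a response to enzalutamide that was 0.43 lower (log2 -0.43, interval -0.65 to -0.21, adjusted p = 0.0864). The enzalutamide difference passed with DESeq2 (adjusted p = 0.0187), without DHT library 1 of knockdown 10 (log2 -0.50, adjusted p = 0.0139) and without all libraries numbered 1 (log2 -0.50, adjusted p = 0.036). The other intervals of the enzalutamide difference reached as far as -0.68 for CITED2 and 0.50 for SESN3.

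SIRT1 itself checked the labels. It had 17.6, 20.6 and 21.4 CPM in knockdown 10 with DHT and enzalutamide, against 56.9, 57.8 and 61.4 CPM in NTC cells. With DHT it had 13.1, 16.0 and 17.8 CPM in knockdown 10, against 46.6 to 51.0 CPM in NTC cells, and with vehicle 17.6, 21.4 and 19.4 CPM, against 56.1, 58.5 and 56.5 CPM. In FBS it had 8.43, 8.68 and 7.21 CPM in shSIRT1 cells, against 40.0, 38.0 and 36.8 CPM in NTC cells. The groups did not overlap in any of the 4 comparisons, and log2 changes were -1.56, -1.65, -1.55 and -2.24 in that order.

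With SIRT1 lowered in stripped serum, PIK3IP1 was higher and TXNIP slightly higher, while the FOXO factors did not pass the edgeR test without a replicate block. In knockdown 10 against NTC cells, 2 of the 10 genes were called as higher with vehicle (TXNIP and PIK3IP1), where 34.6% of all genes were called and 15.5% as higher. The same 2 genes were called with DHT, where 43.0% of all genes were called and 19.5% as higher. With DHT and enzalutamide, PIK3IP1 was called as higher and CITED2 as lower, 2 of the 10, where 34.6% of all genes were called. The count of 2 of 10 thus lies below the share of all genes in each treatment. The 10 genes' median size of change, without sign, was 0.11 with both agents, 0.10 with DHT and 0.11 with vehicle on the log2 scale, against 0.19, 0.23 and 0.19 over all genes. The groups did not overlap for 4 of the 10 genes with both agents, 2 with DHT and 2 with vehicle, against 48.7, 47.0 and 47.4% of all genes.

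PIK3IP1 was higher in every knockdown 10 library than in any NTC library of the same treatment. Its means were 61.4 ± 2.9 CPM in knockdown 10 and 47.5 ± 1.2 CPM in NTC cells with DHT and enzalutamide, 47.5 ± 5.9 and 27.4 ± 1.5 CPM with DHT, and 65.7 ± 1.9 and 46.9 ± 2.8 CPM with vehicle (SD, n = 3). The log2 changes were 0.37 ± 0.073 (adjusted p = 7.65e-04), 0.80 ± 0.076 (adjusted p = 2.62e-07) and 0.49 ± 0.073 (adjusted p = 5.46e-05) in that order. All were called in each of the 14 alternatives tried.

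TXNIP libraries of knockdown 10 also lay above those of NTC cells under each treatment. The means were 407 ± 11 CPM in knockdown 10 and 371 ± 13 CPM in NTC cells with both agents, 332 ± 37 and 275 ± 19 CPM with DHT, and 467 ± 29 and 409 ± 13 CPM with vehicle. Log2 changes were 0.13 (adjusted p = 0.163), 0.27 (adjusted p = 0.00503) and 0.19 (adjusted p = 0.0456). The vehicle call was lost in 8 of 14 alternatives, with adjusted p from 0.0503 to 0.142 without any 1 of the 3 NTC libraries or knockdown library 2 or 3. The DHT call was lost without knockdown library 3 (adjusted p = 0.0504). CITED2 averaged 60.5 ± 4.2 CPM in knockdown 10 and 73.5 ± 3.9 CPM in NTC cells with both agents, a log2 change of -0.28 (adjusted p = 0.0426) that was also lost in 8 of 14 alternatives, without knockdown library 1 or 2 or any NTC library (adjusted p 0.0698 to 0.17) and without all libraries numbered 1 (adjusted p = 0.114).

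The intervals of the FOXO factors bound what could have gone undetected. The log2 difference of FOXO3 between knockdown 10 and NTC cells lay from -0.22 to 0.05 with both agents, from -0.03 to 0.23 with DHT and from -0.15 to 0.12 with vehicle. FOXO4 lay from -0.24 to 0.01, from -0.04 to 0.22 and from -0.16 to 0.09, and FOXO1, with few counts, from -0.25 to 0.33, from -0.31 to 0.28 and from -0.15 to 0.44. FOXO3B was lower in knockdown 10 (log2 -0.43, -0.33 and -0.49, adjusted p = 1.73e-04, 0.00147 and 4.09e-05), at 11.9 to 13.1 CPM in knockdown 10 and 14.9 to 17.6 CPM in NTC cells as group means. Summing the counts of FOXO3 and FOXO3B changed no call of FOXO3.

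A replicate block, fitted over all 18 libraries in stripped serum, is given for both agents and for vehicle, where same-numbered libraries deviated together. That fit also drew on the DHT libraries, for which the pairing with vehicle did not hold. The block called 4 of the 10 genes in each of these comparisons. Of the 14558 genes tested it called 6423 with both agents and 6558 with vehicle, against 5033 and 5038 without the block. With both agents TXNIP (log2 0.13, adjusted p = 0.0414) was added as higher and CAT (log2 -0.13, adjusted p = 0.0117) as lower. With vehicle CAT (log2 -0.10, adjusted p = 0.0342) and BCL6 (log2 -0.17, adjusted p = 0.0189) were added as lower.

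In FBS, shSIRT1 against NTC cells called none of the 10 genes, where 2.71% of 14329 genes were called (2.21% as lower) and 2423 had an unadjusted p under 0.05, none of them among the 10. DESeq2 called none of the 10 either, of 466 genes in all. PIK3IP1 had 10.9, 9.17 and 15.5 CPM in shSIRT1 cells, against 13.1, 13.5 and 18.2 CPM in NTC cells. Library 3 was highest in each group, and the groups overlapped (log2 -0.33, interval -0.78 to 0.11, adjusted p = 0.441). TXNIP had 206, 206 and 299 CPM in shSIRT1 cells, against 186, 185 and 309 CPM in NTC cells. SESN3, the most positive, had 73.8, 72.0 and 96.0 CPM in shSIRT1 cells, against 56.8, 55.9 and 84.1 CPM in NTC cells (log2 0.30, adjusted p = 0.402).

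Library 3 of both FBS groups differed from the others for several of the genes, mostly upward. It exceeded the mean of libraries 1 and 2 by 0.54 log2 units for TXNIP in shSIRT1 cells and 0.73 in NTC cells, by 0.60 and 0.44 for PIK3IP1, by 0.40 and 0.57 for SESN3, and by 0.44 and 0.54 for FOXO4. CITED2 went the other way (-0.49 in shSIRT1 and -0.17 in NTC cells), and BCL6 stayed level (0.014 and -0.013). The median size of that difference over all genes was 0.141 in each group. Same-numbered FBS libraries deviated together (r of 0.133, 0.157 and 0.332 for libraries 1, 2 and 3). Libraries 1 and 2 did so across numbers too (r of 0.111 and 0.131), so only library 3 was matched by its number. With the number as a replicate block SESN3 was called as higher (log2 0.31, adjusted p = 0.00431), as the 1 gene of the 10. The block fit called 1676 of the 14329 genes tested, against 389 without the block. SESN3 was also called without NTC library 3 (log2 0.51, adjusted p = 0.0405). Without both libraries numbered 3, an alternative chosen after seeing the data, 5 of the 10 were called: SESN3 (log2 0.37, adjusted p = 1.44e-05), TXNIP (0.15, adjusted p = 0.00315), CITED2 (0.18, adjusted p = 0.0346) and FOXO3 (0.13, adjusted p = 0.0183) as higher and PIK3IP1 (log2 -0.41, adjusted p = 0.0191) as lower. That fit, on 2 libraries a group, called 3426 of all genes.

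**Figure D3:**
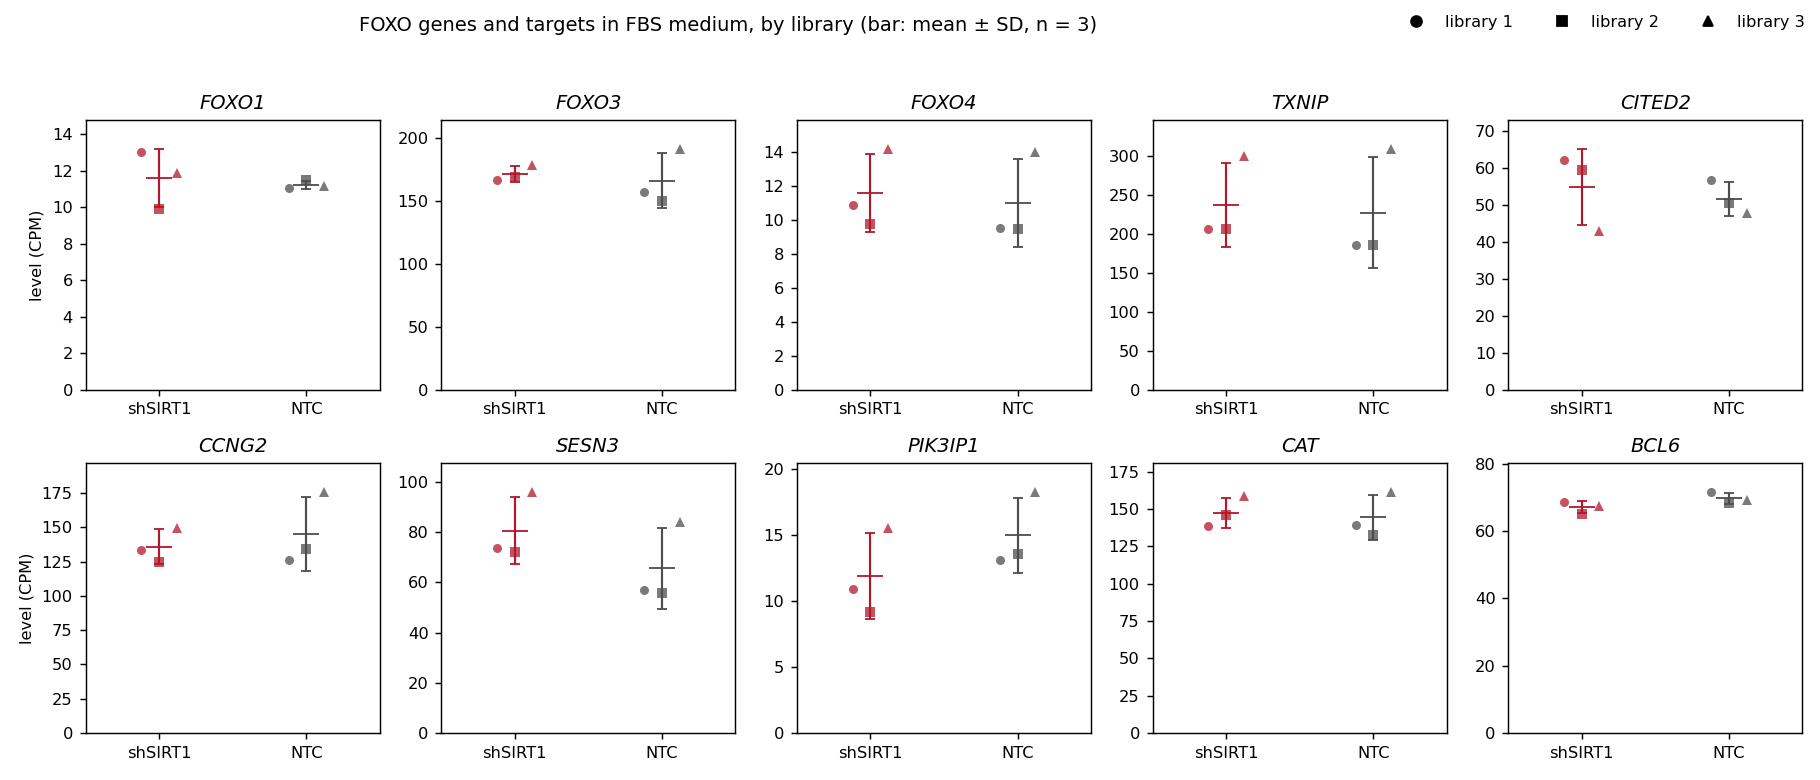
Level in CPM of each gene in the 6 FBS libraries, shSIRT1 in red and NTC in grey, with a marker shape for each library number and bars for the mean ± SD (n = 3). Library 3 (triangles) is highest in both groups for TXNIP, FOXO4, SESN3 and PIK3IP1, reaching 299 and 309 CPM for TXNIP.

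The knockdown change was compared between the 2 settings in a joint fit of 12 libraries. PIK3IP1 alone of the 10 differed, with a change 0.86 ± 0.20 higher on the log2 scale for knockdown 10 with vehicle than for shSIRT1 in FBS (interval 0.44 to 1.28, adjusted p = 0.0097), where 13.8% of 15345 genes were called, 7.47% as higher and 6.29% as lower. The call held in all 19 alternatives, with log2 values of 0.69 to 1.09. Knockdown line, medium and set change together in this comparison and cannot be told apart.

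**Figure D4:**
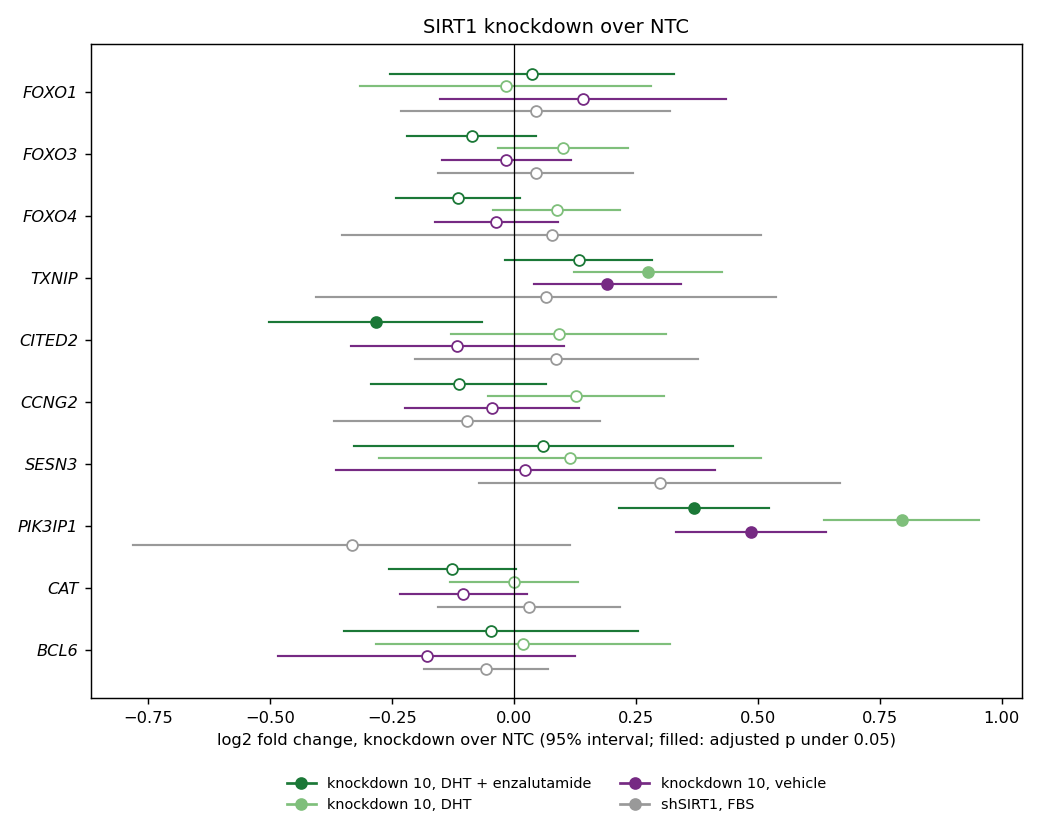
Log2 fold change of each gene in SIRT1 knockdown over NTC cells with its 95% interval, in knockdown 10 under the 3 treatments and in shSIRT1 in FBS; filled points have an adjusted p under 0.05. PIK3IP1 lies right of 0 in stripped serum (0.37, 0.80 and 0.49) and at -0.33, with an interval that spans 0, in FBS.

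Genes for cell proliferation moved with these groups. All 15 of the list were lower in knockdown 10 than in NTC cells under each treatment. Their median log2 changes were -1.60 with both agents, -1.59 with DHT and -1.62 with vehicle. Of all genes, 19.2, 23.5 and 19.1% were called as lower in that order. All 15 also rose with DHT in each line and fell with enzalutamide in each. DHT raised 17.4% of all genes in NTC cells and 13.3% in knockdown 10, and enzalutamide lowered 16.6 and 12.2%. Their summed level was 118 to 142 CPM with both agents, 360 to 495 CPM with DHT and 154 to 172 CPM with vehicle in knockdown 10, and 268 to 379, 1185 to 1450 and 374 to 455 CPM in NTC cells. In FBS none of the 15 was called, and the sum was 1517 to 2142 CPM in shSIRT1 cells and 1472 to 1941 CPM in NTC cells. Their part in the changes of the FOXO targets was not tested. In these bulk RNA samples, fewer cells in a state and less RNA per cell cannot be told apart.

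Upstream of the factors, 24 genes of the PI3K and AKT arm were listed and 23 were tested in stripped serum. DHT raised 6 and lowered 2 of them in NTC cells, and raised 5 and lowered 3 in knockdown 10. It raised 17.4% and lowered 12.5% of all genes in NTC cells, and raised 13.3% and lowered 8.92% in knockdown 10. INPP4B, a phosphatase that breaks down a lipid product of PI3K, rose by log2 1.24 in NTC cells (adjusted p = 1.09e-05) and 1.54 in knockdown 10 (adjusted p = 2.17e-06). IGF1R, the receptor for IGF-1, rose by log2 0.63 and 0.65, and PIK3R1, a regulatory subunit of PI3K, by 0.40 and 0.45. In knockdown 10 against NTC cells, IGF1R was lower (log2 -0.83 with both agents, -0.60 with DHT and -0.62 with vehicle). IGF1R was also lower in shSIRT1 cells in FBS (log2 -0.97, adjusted p = 0.0219). The whole arm had 6 higher and 3 lower with both agents, 4 and 3 with DHT and 6 and 3 with vehicle. Over all genes, 34.6, 43.0 and 34.6% were called in that order.

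A list of 24 genes held enzymes and binding partners that modify FOXO proteins, SIRT1 included. DHT raised 8 and lowered 2 of them in NTC cells and raised 4 and lowered 3 in knockdown 10. Of all genes, 29.9% were called with DHT in NTC cells and 22.2% in knockdown 10. CDK2, a kinase of FOXO1 and of the S phase, rose by log2 1.25 in NTC cells and 0.91 in knockdown 10. SKP2, a ubiquitin ligase subunit for FOXO1, rose by 0.75 and 0.43. SIRT2, another FOXO deacetylase, was higher in knockdown 10 than in NTC cells by log2 0.42 with both agents (adjusted p = 3.60e-06), 0.45 with DHT (adjusted p = 8.81e-07) and 0.45 with vehicle (adjusted p = 1.67e-06).

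A further 57 FOXO targets were listed by function, of which 50 were tested in stripped serum. With DHT 6 rose and 12 fell in NTC cells, and 3 rose and 11 fell in knockdown 10, with medians of -0.07 and -0.06 on the log2 scale. Among all genes, 17.4% rose and 12.5% fell with DHT in NTC cells, and 13.3% and 8.92% in knockdown 10. With enzalutamide over DHT, 14 rose and 5 fell in NTC cells and 12 rose and 3 fell in knockdown 10. Here 12.6% of all genes rose and 16.6% fell in NTC cells, and 8.08% and 12.2% in knockdown 10. Autophagy and protein breakdown genes had 4 lower and none higher of 11 with DHT in NTC cells, against 12.5% of all genes called as lower: GABARAPL1 (log2 -0.36) and MAP1LC3B (-0.36), both proteins of the autophagosome membrane, FBXO32 (-0.74), a ubiquitin ligase subunit of muscle wasting, and ATG14 (-0.19). In knockdown 10, 2 of the 11 were lower, against 8.92% of all genes: MAP1LC3B (log2 -0.30) and the autophagy kinase ULK2 (-0.21). There GABARAPL1 had a log2 value of -0.07, FBXO32 of -0.32 and ATG14 of -0.07, none of them called. The mitophagy receptor BNIP3L fell by 0.44 on the log2 scale in NTC cells and by 0.46 in knockdown 10. SESN1, a sestrin like SESN3, fell by 0.46 and 0.24, and ARRDC3, an arrestin-like protein related to TXNIP, by 0.70 and 0.50. Others rose with DHT, among them LPIN1, a phosphatidate phosphatase (log2 0.65 and 0.48), and FAS, the death receptor (0.51 and 0.31).

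In knockdown 10 against NTC cells, 13 of the 50 targets were higher and 5 lower with both agents, 14 and 8 with DHT, and 12 and 4 with vehicle. Of all genes tested, 15.4% were higher and 19.2% lower with both agents, 19.5 and 23.5% with DHT, and 15.5 and 19.1% with vehicle. In both directions together, 34.6, 43.0 and 34.6% of all genes were called, and the targets were called at about that share. CDKN1A (p21), an inhibitor of cyclin-dependent kinases, was higher by log2 1.17, 1.19 and 1.30. RBL2, a pocket protein of quiescent cells, was higher by 0.42, 0.38 and 0.46, BNIP3L by 0.45, 0.51 and 0.52, and BBC3, the apoptosis gene for PUMA, by 0.75, 0.72 and 0.76. SESN2 was higher by 0.47, 0.48 and 0.50, while PRKAA2, a catalytic subunit of AMPK, was lower (log2 -0.55, -0.64 and -0.50). CDKN1A, BBC3 and SESN2 are also known p53 targets. In FBS, 2 of 51 tested targets were lower, BTG1 (log2 -0.46) and SEPP1 (log2 -0.46), and none was higher. There 2.21% of all genes were called as lower and 0.509% as higher.

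Partners of TXNIP were listed apart. Of 9 genes for glucose sensing and thioredoxin, MLXIP, a glucose-sensing factor that acts at the kind of CACGNG pair shown in the TXNIP promoter, was higher in knockdown 10 by log2 0.47 with both agents (adjusted p = 8.43e-07), 0.61 with DHT (adjusted p = 3.00e-08) and 0.45 with vehicle (adjusted p = 1.36e-06). ARRDC4, a TXNIP relative with the same kind of promoter site, was higher by 0.25, 0.24 and 0.32, and it was higher in shSIRT1 cells in FBS (log2 0.32, adjusted p = 0.0355). With DHT over vehicle, ARRDC4 fell by 0.23 in NTC cells and by 0.31 in knockdown 10 on the log2 scale. Other genes of the list went both ways. With DHT, ARRDC2 averaged 7.42 CPM in knockdown 10 and 9.25 CPM in NTC cells. In the same order MLX averaged 109 and 117 CPM, TXNRD1 489 and 554 CPM, and TXN2 111 and 105 CPM. MLXIP averaged 170 CPM with DHT and 154 CPM with vehicle in knockdown 10, where TXNIP fell. A part of MLXIP in the level of TXNIP was not tested.

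Over the 18 libraries in stripped serum, the levels of several members ran together. Pearson's r of log2 (CPM + 1) was 0.909 between FOXO3 and CCNG2, 0.889 between TXNIP and PIK3IP1 and -0.86 between SESN3 and BCL6. The libraries share treatments, lines and numbers, so these are descriptions. Among 9801 genes with a mean of at least 10 CPM, PIK3IP1 was closest to DYNLT3 (r = 0.983), CRY2 (0.981) and APH1B (0.976), and TXNIP to MAN1A1 (0.967), SIAH1 (0.964) and STRBP (0.962). CCNG2 was closest to ARRDC3 (0.974), which is among the further FOXO targets listed above, then CSRNP2 (0.958) and ARNT2 (0.951). FOXO3 was closest to LOC642852 (0.962), SBF2 (0.958) and ORAI2 (0.952). CAT was closest to PEX19 (0.931), which, like catalase, belongs to the peroxisome, then TSNAX (0.899) and UBE2W (0.897).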

How the data were processed

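The deposited files hold, per gene symbol and library, expected counts, TPM and FPKM that the authors made with RSEM 1.2.31 after CASAVA 1.8.2 on hg19, per the submitters' processing notes; the aligner is not given in the sources used here. The kit was stranded, per the labels' protocols, and whether counting used strand is not given in the sources used here. Expected counts were rounded and analysed with edgeR 4.0.16 on R 4.3.3: filterByExpr by group, TMM scaling (factors 0.992 to 1.01 in FBS, 0.969 to 1.01 in stripped serum), quasi-likelihood F tests, two-sided, with Benjamini-Hochberg adjustment over all genes tested in a comparison, and a call at an adjusted p under 0.05. The 6 FBS and 18 stripped-serum libraries were fitted apart, and 12 FBS and vehicle libraries jointly. There were 13 comparisons, with no adjustment across them. Intervals are 95% intervals of the log2 difference. The deposited TPM gave levels between genes and a limma 3.58.1 alternative on log2 (TPM + 1) or (TPM + 0.1), and the deposited FPKM was used in no test. DESeq2 1.42.0, RLE factors, no filter, a replicate block and left-out libraries were other alternatives. Code was tested on simulated counts.

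The members and the 14 other lists were chosen with earlier results of these data known. All 10 members are named in every comparison or counted, with SIRT1, up to 4 called genes of lowest adjusted p per list, and the 3 genes of highest r for a member, of which some are left out; a few further called list genes were named after their values were seen. Same-numbered libraries were taken as paired where the deviations from the group means correlated at over 0.1 in all 3 pairs (0.133 to 0.332 in FBS), which held in 6 of the 10 comparisons of 2 groups. Some list genes and motifs are not reported here.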

Additional observations from a re-analysis of the deposited data

Results flagged for a closer look

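PIK3IP1 is the 1 of the 10 genes whose SIRT1 knockdown change differed by test between the settings, where 13.8% of all genes were called: its log2 change was 0.86 higher for knockdown 10 with vehicle than for shSIRT1 in FBS (adjusted p = 0.0097 in a joint edgeR fit). The separate changes were 0.49 in knockdown 10, with all 3 libraries above the 3 NTC libraries, and -0.33 in FBS, where the groups overlapped. Groups of 3 are too small for a test of single outlying libraries.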

How the results depend on the processing

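Of 1993 member values under alternatives, 1921 stayed on the same side of the threshold, 28 lost and 44 gained a call. None of the values called in the main fit reversed. Direction was not counted for values not called there, and 106 of those changed sign. Counts of members called moved as follows, and the cause was not tested. In FBS, 0 became 1 with the replicate block and 5 without libraries 3. For knockdown 10 over NTC, 2 became 4 with the replicate block under each of the 3 treatments; with vehicle it became 1 with limma on TPM at either pseudocount and with no filter, and with both agents 1 with limma at either pseudocount and without libraries 1. With the block and DHT, the genes added were FOXO3 (log2 0.10, adjusted p = 0.0293) and CCNG2 (0.13, adjusted p = 0.0468), both higher. With the replicate block, DHT over vehicle gave 9 in NTC cells in place of 6 (adding CITED2 and SESN3 as lower and BCL6 as higher, adjusted p = 0.0244, 3.39e-04 and 0.00572), 7 in knockdown 10 in place of 4 (adding FOXO4 and SESN3 as lower and BCL6 as higher, adjusted p = 0.0347, 0.00613 and 2.71e-05), and enzalutamide over DHT 8 in NTC cells in place of 5. The enzalutamide difference between lines gave 2 (CITED2 and PIK3IP1) with the block, 1 with DESeq2 and 1 without libraries 1, in place of 0. Calls over the 14558 genes tested rose with the block too. DHT over vehicle went from 4352 to 5859 in NTC cells and from 3236 to 4674 in knockdown 10. Enzalutamide over DHT in NTC cells went from 4252 to 5870. Knockdown over NTC with DHT went from 6266 to 7543, and the enzalutamide difference from 51 to 573. The pairing did not hold for DHT over vehicle, knockdown over NTC with DHT, or the differences. Leaving out 1 library gave 0 to 1 in FBS, 1 to 2 for knockdown over NTC under each treatment, 5 to 6 for DHT over vehicle with NTC and 4 to 5 with knockdown 10, 5 and 3 to 4 for enzalutamide over DHT in the same order, 0 for both agents over vehicle, 0 and 0 to 1 for the differences between lines, and 1 in the joint fit. Calls over all genes in FBS (389) ran from 103 to 926 without 1 library: 103, 112 and 425 without shSIRT1 libraries 1, 2 and 3, and 115, 107 and 926 without NTC libraries 1, 2 and 3; they were 1676 with the block. PIK3IP1, FOXO4 and FOXO1 had the fewest counts in FBS, at least 114, 121 and 123 per library, which limits their precision.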
